A study of Mus musculus with 8 samples.

Results

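The comparison is between tumor-infiltrating leukocytes taken 26 days and 12 days after transfer of PD1d/IL-2v/IL-33 OT1 cells into mice bearing B16-OVA melanoma, that is, between the latest time point and the one before it under the same adoptive cell therapy (ACT). Members were the cell barcodes of these 2 libraries that held 500 to 6000 genes, 2000 to 40000 unique molecular identifiers (UMIs, each standing for 1 captured RNA molecule) and under 10% mitochondrial UMIs. They numbered 3669 at day 26 and 1665 at day 12, together 5334 of the 13046 cells that passed the same limits across the 8 libraries of the experiment. B16-OVA is a C57BL/6 melanoma line that expresses ovalbumin, and OT1 cells are CD8+ T cells from mice whose T cell receptor transgene recognizes an ovalbumin peptide. The recipients were C57BL/6 mice without lymphodepletion, so they kept their own T, NK and myeloid cells, and they received on separate days a mixture in equal parts of OT1 cells transduced with PD1d and IL-2v and OT1 cells transduced with PD1d and IL-33. PD1d is a secreted decoy made of the PD-1 ectodomain and an antibody Fc part, IL-2v is an IL-2 variant that does not bind CD25, and IL-33 is an alarmin of the IL-1 family. CD45+ cells were sorted from tumors pooled over 5 mice per condition (as stated for days 5 and 12) and enriched for CD8+ T cells, so the shares below are shares of sorted cells, not of the tumor. Each time point was 1 library, so no value has a replicate check and no test between days was possible. Limits given with a value are exact 95% limits (Poisson for UMIs, Clopper-Pearson for shares of cells) and cover counting error only.

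When antigen is cleared or persists, CD8+ T cells can contract, persist as memory cells that recirculate, or enter a dysfunctional state under the transcription factor TOX with high PD-1. Granzymes are the serine proteases of cytotoxic granules. Granzymes A and B are shared by effector T cells and NK cells, granzymes C to G lie in a cluster beside Gzmb on mouse chromosome 14 and are known from strongly IL-2-driven cytotoxic cells, and granzyme K is characteristic of memory-like and antigen-experienced T cells. IL-33 signals through ST2, the product of Il1rl1, on regulatory T cells and type 2 lymphocytes, which answer with IL-5, IL-13 and amphiregulin, and type 2 cytokines in turn induce genes such as Arg1, Chil3, Mrc1 and Ccl24 in macrophages.

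Cells were assigned to gates by lineage UMIs. The CD8 T gate required a Cd3d, Cd3e or Cd3g UMI and a Cd8a or Cd8b1 UMI, with no Cd4 UMI, no B cell UMI and fewer than 5 UMIs of 10 myeloid genes. The CD4 T gate was its counterpart, the NK gate required an Ncr1 or Klrb1c UMI with no Cd3d, Cd3e, Cd4 or Cd8 UMI and the same limits on myeloid and B cell genes, and the myeloid gate required 5 or more myeloid UMIs with no Cd3, NK or B cell UMI. Transferred OT1 cells and the host's own CD8+ T cells could not be told apart in these counts, and UMIs of Pdcd1 (PD-1) may come from the decoy transgene or from the endogenous gene. The gates held their defining genes by their own rule, so the Cd3 and Cd4 levels given here are no check on them. Cd3 genes summed to 3771 counts per 1000000 UMIs of the gate (CPM) at day 26 and 2701 CPM at day 12 in the CD8 T gate, and Ncr1 and Klrb1c, the genes of the NK gate, at 5.73 and 28.7 CPM together. Within the CD4 T gate, Cd4 was at 408 and 357 CPM.

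The libraries differed in quality as well as in day. The day 26 library lost 0.838% of its 3700 barcodes to the limits and the day 12 library 33.4% of its 2500 barcodes, mostly for low UMIs. Median UMIs per passing cell were 5193 at day 26 and 6789 at day 12. The day 26 library shared a run identifier with the non-treated day 5 library, and the day 12 library shared one with the untransduced OT1 day 12 library. Day and run therefore cannot be told apart. The identifier comes from the submitters' record of the aggregated libraries, and the labels do not say that it is a sequencing run. The ratio of these 2 run mates is given below where it bears on a gene. It comes from 280 and 203 cells that also differed in treatment and day, and is called the run pair. The libraries shared 11 barcodes, 7 of them among passing cells.

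The day 26 tumor infiltrate held more T cells and fewer NK cells than that of day 12. The CD8 T gate took 58.3% of day 26 cells (2139 cells, limits 56.7 to 59.9%) and 38.9% of day 12 cells (648 cells, 36.6 to 41.3%), against 18.3% at day 5. The CD4 T gate took 10.7% (392 cells, 9.70 to 11.7%) at day 26 and 6.85% (114 cells, 5.68 to 8.17%) at day 12. The NK gate went the other way. It took 1.96% (72 cells, 1.54 to 2.46%) at day 26 and 14.8% (246 cells, 13.1 to 16.6%) at day 12, with 35.2% at day 5, so that the share was lower at each later time point. Under a stricter gate that asked for 2 lineage UMIs the NK share was 1.58% at day 26 and 7.81% at day 12, so the day 12 share depended more on the gate. The myeloid gate took 8.29% (304 cells, 7.41 to 9.22%) and 10.6% (177 cells, 9.19 to 12.2%), with limits that overlapped. B cells were rare at both days, with 16 cells at day 26 and 7 cells at day 12. Cells that fell in no gate were 20.3% and 28.4%, and of gated cells alone the CD8 T gate took 73.2% and 54.4% and the NK gate 2.46% and 20.6%. The enrichment for CD8+ T cells can set these shares, and a lower share cannot be told apart from a rise in other cells.

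**Figure D1:**
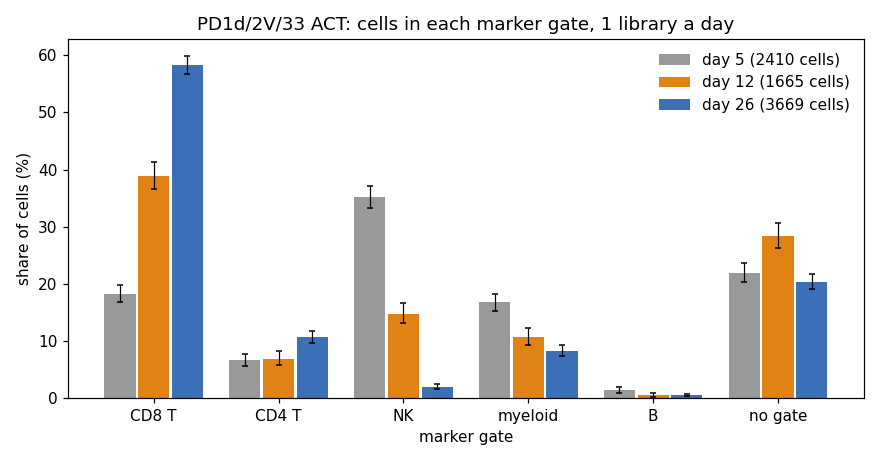
Percentage of passing cells in each marker gate (vertical axis, percent, starting at 0) in the PD1d/IL-2v/IL-33 libraries of days 5, 12 and 26, with bars giving the share and error bars exact 95% Clopper-Pearson limits, 1 library per day. The CD8 T bars stand at 18.3%, 38.9% and 58.3%, and the NK bars at 35.2%, 14.8% and 1.96%.

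The other libraries varied in the same shares. The day 26 run mate, non-treated day 5, held 25.7% CD8 T and 23.9% NK cells, and the day 12 run mate held 18.7% and 25.6%. The run mates also differed in treatment from the libraries compared, and the part of the run in these shares was not tested. Among the other engineered ACT libraries of day 12, PD1d/IL-2v had 23.3% CD8 T and 20.1% NK cells and PD1d/IL-33 had 45.3% and 15.9%.

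Genome-wide ratios were taken within each gate over genes with at least 50 UMIs in the 2 libraries together, as log2 of day 26 CPM over day 12 CPM after adding 10 CPM to each. A gene was counted as higher or lower when its ratio was past 2-fold, a rule of size and not a test. In the CD8 T gate 160 of 9589 genes (1.67%) were higher and 170 (1.77%) lower at day 26, with a median of 0.12 over all genes tested. The split leaned on the scaling, since trimmed-mean (TMM) factors gave 104 higher and 199 lower. The 95% counting limits of each of the 330 genes (3.44% in either direction) excluded 0. The added 10 CPM and the depth of the gate make this nearly certain for any gene past 2-fold, so it adds no support. The limits also treat UMIs as independent, although a few cells held many of the UMIs of some genes.

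Within the CD8 T gate the granzyme genes went different ways. Granzymes C, D, E, F and G were close to undetected at day 26, granzymes A and B were lower, granzyme K was higher, and perforin was near level. To place the genes, the 250 bases of reference sequence before the RefSeq start site (build GRCm38.p6) are shown for Gzmc at chr14:56234658-56234907 and Gzmf at chr14:56211408-56211657, which were the genes with the lowest log2 ratios of the family, and for Gzmk at chr13:113180966-113181215, which was among the genes with the highest ratios, all on the minus strand and written 5′ to 3′ on the gene's strand. Capitals mark matches on either strand to the RUNX letters TGTGGTT (seen here as AACCACA) and the ETS letters CAGGAAGT (seen here as ACTTCCTG), families of factors that act in cytotoxic lymphocytes.
Gzmc: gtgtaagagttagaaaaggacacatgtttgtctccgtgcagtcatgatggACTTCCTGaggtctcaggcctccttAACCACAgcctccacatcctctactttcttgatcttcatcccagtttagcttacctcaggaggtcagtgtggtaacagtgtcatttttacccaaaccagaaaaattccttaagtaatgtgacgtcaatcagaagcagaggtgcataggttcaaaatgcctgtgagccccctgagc
Gzmf: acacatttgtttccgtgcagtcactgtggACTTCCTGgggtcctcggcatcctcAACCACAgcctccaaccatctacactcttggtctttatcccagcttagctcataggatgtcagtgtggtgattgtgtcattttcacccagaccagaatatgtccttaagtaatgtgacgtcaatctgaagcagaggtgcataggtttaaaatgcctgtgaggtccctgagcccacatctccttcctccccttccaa
Gzmk: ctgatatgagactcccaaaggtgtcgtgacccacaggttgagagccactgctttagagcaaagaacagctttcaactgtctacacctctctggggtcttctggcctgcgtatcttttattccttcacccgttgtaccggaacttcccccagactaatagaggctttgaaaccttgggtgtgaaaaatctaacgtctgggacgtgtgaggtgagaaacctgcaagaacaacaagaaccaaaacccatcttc

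All 5 of Gzmc, Gzmd, Gzme, Gzmf and Gzmg held 1 match to each set of letters in this window, in the same order, and Gzmk held none. Gzma and Gzmb each held 1 match to the RUNX letters and none to the ETS letters, so the RUNX letters were not particular to the C to G genes. These 5 genes lie in 1 cluster, and their matches were not counted as independent. Over all 32851 promoters of the same length, 4.40% held the RUNX letters and 2.69% the ETS letters. A match is a description of the letters and was not tested for binding. Gzmd and Gzme are near-identical copies, so counts between them are uncertain.

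Gzmc was at 4.78 CPM (3.66 to 6.15) at day 26 against 661 CPM (640 to 682) at day 12. Its log2 ratio was -5.50 (-5.63 to -5.37). Gzmf stood at 1.18 CPM (0.659 to 1.94) and 600 CPM (580 to 621), a log2 ratio of -5.77. The limits of the 2 days were far apart for both genes. Gzmd gave 1 UMI at day 26 and 918 at day 12, a ratio of day 12 over day 26 CPM of 2084 with counting limits of 373 to 82410, and Gzme gave 1 and 377 UMIs, a ratio of 856 (153 to 33896). Gzmg gave 0 and 473 UMIs and was at least 358-fold lower against a floor of 3 UMIs in the library. These transcripts were carried by a part of the day 12 cells. Gzmc was found in 132 of 648 cells at day 12, and the 3 cells with the most held 30.2% of its UMIs, while at day 26 it was found in 8 of 2139 cells. After each cell was thinned to 2000 UMIs, 0.140% of day 26 cells (3 of 2139, 0.0289 to 0.409%) and 15.0% of day 12 cells (97 of 648, 12.3 to 18.0%) had a UMI of any of the 5, and without thinning 0.514% and 25.8%. The median depth of the gate was 5129 UMIs per cell at day 26 and 7492 at day 12. In myeloid cells, which should lack granzymes, 0 of 304 (which allows a share of up to 0.987%) and 2 of 177 had such a UMI after thinning. Among the 8 libraries the day 12 value was the highest: Gzmc was at 72.8 CPM at day 5 of the same ACT, 169 CPM in PD1d/IL-2v at day 12 and 3.97 CPM in PD1d/IL-33 at day 12. The run pair gave a log2 ratio of -1.12 (-2.15 to 0.08) for Gzmc.

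Gzma and Gzmb were lower by a smaller factor. Gzma was at 477 CPM (465 to 489) at day 26 against 1325 CPM (1295 to 1356) at day 12, a log2 ratio of -1.46. Gzmb was at 396 and 1149 CPM, a log2 ratio of -1.51 (-1.56 to -1.46), and was detected after thinning in 26.5% and 57.9% of cells (37.4% and 73.1% without thinning). Both had been higher still at day 5, at 1943 and 1720 CPM. For Gzmb the run pair went the other way, at 1.74 (1.28 to 2.23). Prf1, which encodes the pore-forming perforin, was at 80.8 and 86.7 CPM with a log2 ratio of -0.09, and Ifng at 135 and 147 CPM with -0.12. Ifng had stood at 1165 CPM at day 5.

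Gzmk was at 729 CPM (714 to 744) at day 26, 123 CPM (114 to 133) at day 12 and 171 CPM at day 5. Its log2 ratio of day 26 over day 12 was 2.47 (2.37 to 2.58). After thinning 62.5% of day 26 cells (60.4 to 64.5%) and 20.4% of day 12 cells (17.3 to 23.7%) had a Gzmk UMI, and without thinning 77.5% and 36.9%. In myeloid cells 2 of 304 and 0 of 177 did after thinning. After thinning Gzmk and a granzyme of the C to G group were seen in the same cell in 0.0468% of day 26 cells and 1.23% of day 12 cells. Without thinning the shares were 0.327% (7 of 2139) and 6.48% (42 of 648). Few day 26 cells could show both, since only 3 thinned and 11 unthinned cells had a C to G UMI. In the other day 12 libraries Gzmk was at 519 CPM in PD1d/IL-33, 114 CPM in PD1d/IL-2v and 236 CPM in untransduced OT1, and the run pair ratio was 0.45 (0.02 to 0.90). Over the 18 genes of the cytotoxic granule and death ligand list, 1 was higher and 7 lower (median -0.24), against 1.67% and 1.77% of all genes.

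**Figure D2:**
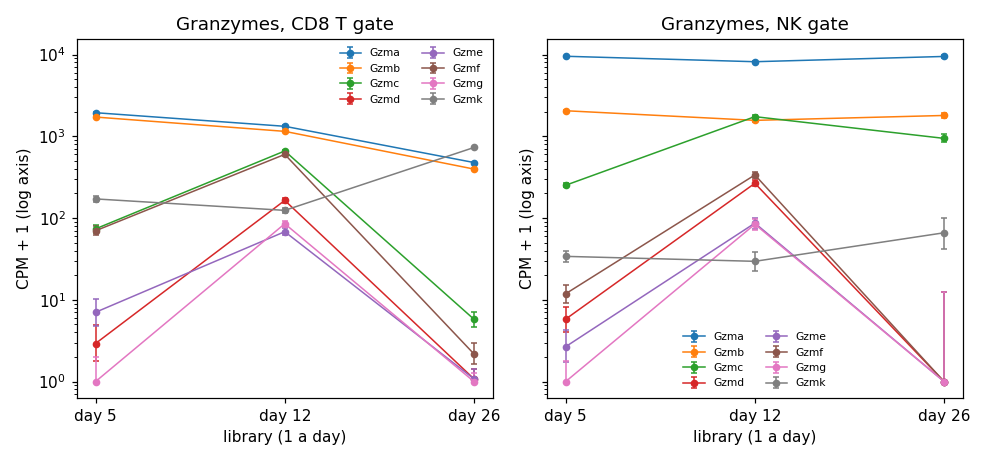
Level of 8 granzyme transcripts (CPM + 1 on a logarithmic axis) against day after transfer (5, 12 and 26) in the CD8 T and NK gates, 1 library per day. In the CD8 T gate Gzmk reaches 729 CPM at day 26, while Gzmc drops from 661 to 4.78 CPM between days 12 and 26 and Gzmg from 84.2 to 0 CPM.

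Part of the genes of memory, homing and recirculation were higher at day 26. Klf2, a factor that drives S1pr1, the receptor needed to leave tissue, was at 341 CPM at day 26 against 70.0 CPM (63.2 to 77.3) at day 12, a log2 ratio of 2.13 (2.00 to 2.27). Cxcr3, the receptor for CXCL9 and CXCL10, was at 242 and 52.7 CPM, a log2 ratio of 2.01 (1.86 to 2.15). Il7r, the IL-7 receptor chain kept by memory cells, was at 136 and 35.4 CPM (log2 ratio 1.68). Of the run pair, Cxcr3 had a ratio of -0.13, Klf2 of 0.28 and Il7r of -1.60, so none of the 3 was past 2-fold in the direction of day 26 between the run mates. Tcf7, which encodes the stem-like factor TCF1, was at 127 and 51.3 CPM with a log2 ratio of 1.16, but had been at 110 CPM at day 5. Slamf6, a surface marker of the same cells, was at 78.9 and 20.3 CPM (log2 ratio 1.55) and at 79.4 CPM at day 5. Tcf7 and Slamf6 were thus low at day 12 relative to both the earlier and the later library. The integrins Itgb1 (636 and 274 CPM) and Itga4 (254 and 104 CPM) and the chemokine Ccl5 (11392 and 4979 CPM) were also past 2-fold, and Ccl5 had a run pair ratio of 0.74. Ccr7, the lymph node homing receptor, went lower instead, from 112 to 52.4 CPM (log2 ratio -0.97, within 2-fold). Of 16 naive and memory genes 6 were higher and 1 lower (median 0.50), and of 22 effector and homing genes 3 were higher and 1 lower (median 0.36), where 1.67% and 1.77% of all genes were.

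Tox, the factor that sustains the dysfunctional state, was at 137 CPM (130 to 143) at day 26 against 30.3 CPM (25.9 to 35.2) at day 12. The log2 ratio was 1.87 (1.69 to 2.04), and 52.7 CPM had been found at day 5. After thinning a Tox UMI was found in 19.2% of day 26 cells (17.5 to 20.9%) and 5.86% of day 12 cells (4.18 to 7.96%), against 1 of 304 and 1 of 177 myeloid cells, and without thinning in 37.7% and 15.1%. Tox was not confined to the later library. It was at 140 CPM in untransduced OT1 at day 5, 172 CPM in PD1d/IL-33 at day 12 and 204 CPM in the non-treated library, and the run pair ratio was 1.32 (0.66 to 2.01), in the direction of day 26. The receptors that accompany the state differed less. Pdcd1 was at 363 and 209 CPM (log2 ratio 0.77, 0.68 to 0.85), Tigit at 287 and 116 CPM (1.23), Lag3 at 114 and 114 CPM (-0.01), Ctla4 at 99.1 and 138 CPM (-0.44) and Havcr2, encoding TIM-3, at 24.8 and 50.9 CPM (-0.81). Pdcd1 and Tigit had run pair ratios of 1.72 and 1.65. Of 12 inhibitory receptors Tigit alone was past 2-fold (median 0.23), where 1.67% of all genes in the gate were higher and 1.77% lower. After thinning, a Pdcd1 UMI was found at day 26 in 45.9% of cells with a Tox UMI (188 of 410) and 28.2% of those without (487 of 1729), and Gzmk in 67.6% and 61.2% of the same cells. Klf2 was found at day 26 in 24.7% of Gzmk-positive cells (330 of 1336) and 34.9% of the others (280 of 803), but at day 12 in 15.2% (20 of 132) and 10.9% (56 of 516), with limits that overlapped. Of 14 exhaustion-associated factors 1 was higher and 3 lower, the latter including Nr4a3, a factor induced by T cell receptor signals, at 28.1 and 178 CPM (log2 ratio -2.30).

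**Figure D3:**
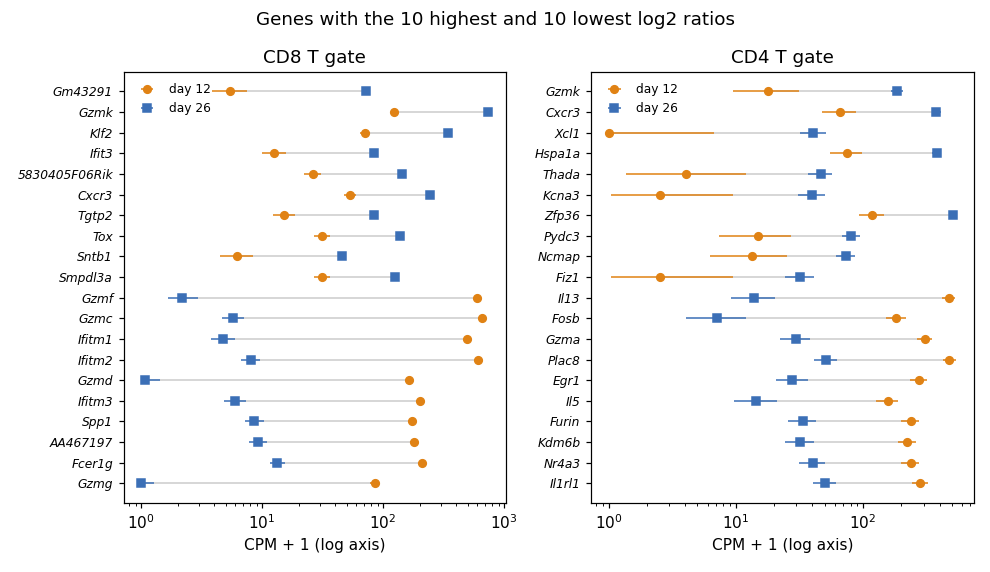
Levels at day 26 and day 12 (CPM + 1, logarithmic axis, with exact 95% Poisson limits) of the 10 genes with the highest and the 10 with the lowest log2 ratio in the CD8 T gate and in the CD4 T gate. In the CD8 T gate Gzmk, Klf2 and Cxcr3 are among the higher genes and Gzmf and Gzmc are lowest, and in the CD4 T gate Gzmk and Cxcr3 are higher and Il13 is lowest.

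Some interferon-induced genes were higher in the CD8 T gate at day 26 and some were lower. Ifit3, an antiviral protein induced by type I interferon, was at 83.8 CPM (78.9 to 89.0) and 11.6 CPM (8.93 to 14.8), a log2 ratio of 2.12, and Tgtp2, a GTPase induced by interferons, at 83.2 and 14.2 CPM, a log2 ratio of 1.94. Their upstream windows are shown because both belong to the interferon lists, Ifit3 at chr19:34583279-34583528 on the plus strand and Tgtp2 at chr11:49064213-49064462 on the minus strand, with capitals marking, on either strand, the letters of an interferon-response element (GAAA, any 2 bases and GAAA again).
Ifit3: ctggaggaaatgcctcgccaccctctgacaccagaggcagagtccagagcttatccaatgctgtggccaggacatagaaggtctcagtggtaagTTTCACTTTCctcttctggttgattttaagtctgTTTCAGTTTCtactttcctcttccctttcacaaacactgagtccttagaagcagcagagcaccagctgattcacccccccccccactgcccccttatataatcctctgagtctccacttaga
Tgtp2: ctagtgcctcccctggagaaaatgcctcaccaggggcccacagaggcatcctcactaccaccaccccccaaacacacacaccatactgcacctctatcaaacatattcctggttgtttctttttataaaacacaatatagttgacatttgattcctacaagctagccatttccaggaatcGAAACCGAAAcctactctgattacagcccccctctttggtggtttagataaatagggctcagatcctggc

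Ifit3 held 2 matches and Tgtp2 held 1, and 2.98% of all promoters of this length held any. A match went with both directions, since Ifitm2, one of the lowest genes in the gate, held 1 too, and Ifitm1 and Ifitm3 held none. Of 27 type I interferon genes tested 6 were higher and none lower, with a median of 0.60 beside 0.12 for all genes, and of 22 interferon gamma genes 3 were higher and none lower, with a median of 0.43, where 1.67% of all genes were higher and 1.77% lower. Irf7, the factor that amplifies the type I response, was at 102 and 30.5 CPM (log2 ratio 1.47), and Ifi47, a GTPase, at 209 and 73.2 CPM (1.40). The run pair divided them. Ifit3 had 1.32 (0.36 to 2.26) and Irf7 1.11, but Tgtp2 had -0.81 and Ifi47 -1.35. In contrast, Ifitm1, Ifitm2 and Ifitm3, membrane proteins of another interferon-inducible family, were among the lowest genes, as described next. The 9 MHC class I genes kept within 2-fold, with a median of 0.41, although B2m was at 2588 and 3498 CPM (log2 ratio -0.43).

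A set of genes that are usual in myeloid or innate cells was much lower in the CD8 T gate at day 26. Ifitm2 was at 7.06 and 607 CPM (log2 ratio -5.18), Ifitm1 at 3.76 and 492 CPM (-5.19), Fcer1g, the signaling chain of Fc and NK receptors, at 12.4 and 209 CPM (-3.29), and Spp1, osteopontin, at 7.61 and 172 CPM (-3.37). At day 5 Ifitm2 was at 59.6 CPM and Fcer1g at 59.3 CPM. The 10 gate genes of myeloid cells (11 rows of the matrix, since Itgam has 2) summed to 155 CPM at day 26 against 170 CPM at day 12, of which Lyz2, lysozyme, was at 9.73 and 3.38 CPM, whereas neutrophil and mast cell genes summed to 4.39 and 72.8 CPM and NK gate genes to 5.73 and 28.7 CPM, and their part in the result was not tested. After thinning, Ifitm2 was found at day 12 in 62.2% of cells with a Gzmc UMI (46 of 74, 50.1 to 73.2%) and 13.2% of cells without (76 of 574), and Fcer1g in 44.6% (33 of 74) and 11.1% (64 of 574). The cycling gene Mki67 did not divide these cells, at 6.76% and 6.62%. Under gates that asked for 2 lineage UMIs the log2 ratio was -4.23 for Gzmc and -5.13 for Ifitm2. Under the cell filter of the study's later experiment, which keeps cells of 500 to 12000 UMIs, the ratios were -3.91 and -3.99. The lectin Lgals3 (149 and 822 CPM) and Plac8 (132 and 836 CPM) were lower as well, with log2 ratios of -2.38 and -2.57.

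Of the 10 genes with the highest log2 ratios in the gate, the other 4 are not in the lists. The predicted gene Gm43291 was at 71.6 and 4.45 CPM (2.50) with a run pair ratio of 2.24, 5830405F06Rik at 143 and 25.3 CPM (2.11, run pair 0.18), Sntb1, a syntrophin, at 44.6 and 5.16 CPM (1.85, run pair -0.04) and Smpdl3a, a phosphodiesterase, at 123 and 30.5 CPM (1.72, run pair 0.34). For Gm43291 alone of these 4 the run mates differed past 2-fold.

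Part of the genes of glycolysis and of the response to low oxygen were lower. Of 20 tested none was higher and 8 were lower (median -0.71), against 1.67% and 1.77% of all genes in the gate. The glycolytic enzyme Pgk1 was at 15.1 and 91.4 CPM (log2 ratio -2.01), Bnip3, which acts in mitophagy, at 12.9 and 78.2 CPM (-1.95), and the growth factor Vegfa at 0.471 and 24.0 CPM (-1.70). The 88 respiratory chain genes tested had a median of -0.04 with 1 lower, and the 81 ribosomal protein genes a median of -0.17 with none past 2-fold. Activation and IL-2 response genes were lower in part. Tnfrsf9, encoding the costimulatory receptor 4-1BB, was at 147 and 460 CPM (log2 ratio -1.58, run pair 1.34), Il2ra, encoding CD25, at 19.2 and 69.5 CPM (-1.44), and Socs2, a target of STAT5, at 6.75 and 38.3 CPM (-1.53). Over 20 cytokine receptor and STAT5 genes 2 were higher and 3 lower, with a median of 0.00. Cells with a UMI of 6 cycling genes (Mki67, Top2a, Birc5, Cdk1, Ccnb1 and Ccna2) were 8.79% at day 26 and 16.8% at day 12 after thinning (19.6% and 34.4% without), and leaving out cells with 2 or more such UMIs kept Gzmk at a log2 ratio of 2.42 and Gzmc at -5.48.

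In the CD4 T gate 230 of 5406 genes (4.25%) were higher and 142 (2.63%) lower (6.88% in either direction), with a median of 0.14, and TMM factors gave 174 and 174. The type 2 cytokine genes Il13 and Il5, Areg and Il1rl1 were lower at day 26, and Cxcr3 and Gzmk were higher. Il13 was at 12.9 CPM (8.17 to 19.3) at day 26, 471 CPM (420 to 527) at day 12 and 2986 CPM at day 5. Its log2 ratio was -4.39 (-4.76 to -4.00), and its UMIs came from 5 of 392 cells and 21 of 114 cells, of which the top 3 held 72.5% at day 12. Il5 followed at 13.4, 156 and 1980 CPM and the growth factor Areg, amphiregulin, at 328, 1489 and 3732 CPM for days 26, 12 and 5, with log2 ratios of -2.82 and -2.15. The 3 genes were lower at each later time point. Il1rl1, the IL-33 receptor, was at 49.3 CPM at day 26 against 280 CPM at day 12 (log2 ratio -2.29), and after thinning was found in 6.12% and 26.3% of cells (11.2% and 36.8% without). Gata3, the factor of type 2 cells, was at 118 and 222 CPM (-0.85), and Rora, a factor of type 2 innate and tissue T cells, at 171 and 479 CPM (-1.43). The run pair ratio was -1.40 for Il1rl1 and -0.82 for Areg. Il1rl1, Gata3, Il13 and Il5, the marker list of type 2 lymphoid cells, together came to 194 CPM at day 26 against 1129 CPM at day 12.

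Cxcr3 was at 378 CPM at day 26 against 64.7 CPM at day 12 in the CD4 T gate, a log2 ratio of 2.38 (1.98 to 2.79), and after thinning was found in 48.0% (188 of 392) and 9.65% (11 of 114) of cells (68.6% and 22.8% without). Gzmk was at 185 CPM (166 to 207) and 16.9 CPM (8.46 to 30.3), a log2 ratio of 2.86 (2.26 to 3.42), and was found in 21.9% and 2.63% of thinned cells (28.1% and 5.26% without thinning). Myeloid cells, the background, had a thinned UMI of Il1rl1, Cxcr3 or Gzmk in at most 1.64%, and the median depth of the CD4 T gate was 3996 and 4729 UMIs. In both T cell gates, then, Gzmk and Cxcr3 were higher past 2-fold. Foxp3, the factor of regulatory T cells, was at 236 CPM (214 to 260) and 123 CPM (97.7 to 153), with a log2 ratio of 0.89, within 2-fold, and 18.4% (72 of 392) and 12.3% (14 of 114) of thinned cells had a UMI (23.5% and 21.1% without thinning). Cxcr3 was spread over both kinds of cell at day 26, in 36 of 72 Foxp3-positive cells and 152 of 320 others. Gzmk was nearly all in cells without Foxp3, in 1 of 72 and 26.6% (85 of 320). By CPM, Il1rl1 was lower in both kinds of cell. Before thinning, cells with a Foxp3 UMI (92 and 24) held it at 73.6 and 251 CPM (41 and 46 UMIs), a log2 ratio of -1.64 (-2.22 to -1.06), and cells without (300 and 90) at 38.3 and 292 CPM, a log2 ratio of -2.64 (-3.06 to -2.23). After thinning it was found at day 26 in 10 of 72 Foxp3-positive cells and 14 of 320 others, and at day 12 in 1 of 14 and 29 of 100. The thinned share of Foxp3-positive cells was thus not lower at day 26. It was 13.9% (6.87 to 24.1%) against 7.14% (0.181 to 33.9%) at day 12, with limits that overlapped.

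Of 12 naive and memory genes 3 were higher and none lower (median 0.41), and of 18 effector, homing and residency genes 2 were higher and 2 lower (median 0.12), against 4.25% and 2.63% of all genes. Il7r was at 353 and 116 CPM (log2 ratio 1.53), Klf2 at 475 and 172 CPM (1.41), Tigit at 392 and 185 CPM (1.05) and Itgae, the CD103 integrin of tissue-resident cells, at 104 and 27.7 CPM (1.59), while Cd69, which retains cells in tissue, was at 179 and 371 CPM (-1.01) and Zeb2, a factor of effector cells, at 20.2 and 52.4 CPM (-1.05). Klf2 had a run pair ratio of 1.55 and Il7r of -0.91. Klf2 went opposite ways in the 2 kinds of CD4 T cell. Before thinning, cells with a Foxp3 UMI held it at 55.6 and 126 CPM (31 and 23 UMIs, log2 ratio -1.05). Cells without held it at 665 and 191 CPM (1.75). After thinning a Klf2 UMI was found in 31.4% and 23.7% of the gate, with limits that overlapped. Il7r was higher in both kinds of cell (1.64 and 1.48). Tbx21, the factor of type 1 helper cells, was at 87.9 and 46.2 CPM (0.80) and Ifng at 85.7 and 162 CPM (-0.84), neither past 2-fold. Immediate early genes were split. Fosb was at 6.16 and 182 CPM (-3.57) and Egr1 at 26.9 and 274 CPM (-2.95), though 1 cell held 87 of the 178 Egr1 UMIs of day 12 and the top 3 held 67.4%, while Hspa1a, a heat shock protein, was at 379 and 73.9 CPM (2.21) with a run pair ratio of -4.84 and Zfp36, which promotes decay of cytokine mRNA, at 505 and 117 CPM (2.02). Xcl1, a chemokine for cross-presenting dendritic cells, had 71 UMIs at day 26 from 11 cells, of which 1 cell held 47 and the top 3 held 85.9%, and 0 at day 12 (at least 8.61-fold higher). Its run pair ratio was 4.73 (2.63 to 5.25), in the direction of day 26. Gzma was at 28.6 and 305 CPM (-3.03), but its top 3 cells held 91.4% of its UMIs at day 12. Of 19 genes in the immediate early and heat shock list 5 were higher and 3 lower. Of 25 helper and regulatory T cell genes 3 were higher and 3 lower (median 0.18), of 17 cytokines 3 were higher and 6 lower (median -0.07), and of 18 cell cycle genes none was higher and 5 were lower (median -0.58), against 4.25% and 2.63% of all genes.

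**Figure D4:**
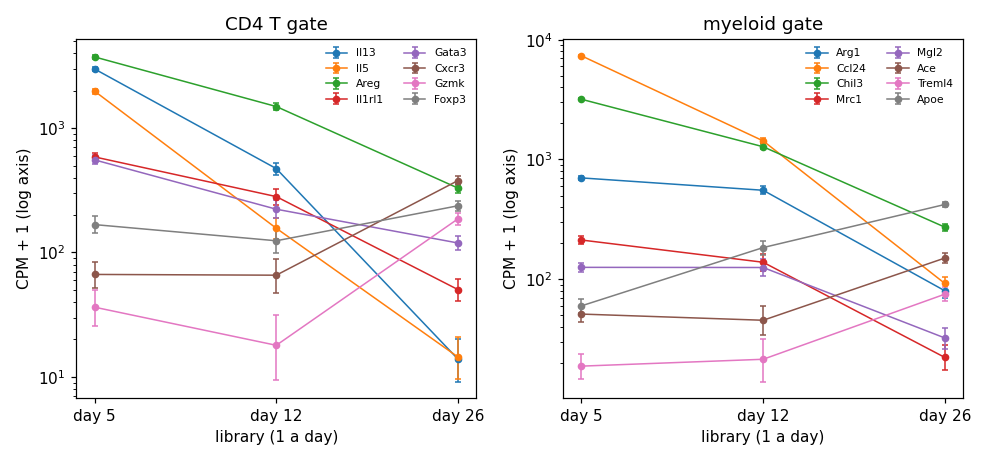
Level (CPM + 1, logarithmic axis) against day after transfer of 8 genes in the CD4 T gate and 8 genes in the myeloid gate, 1 library per day. Il13, Il5, Areg, Arg1, Ccl24, Chil3 and Mrc1 are each lowest at day 26, and Cxcr3, Gzmk, Ace, Treml4 and Apoe highest at day 26.

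In the NK gate only 72 cells and 322563 UMIs were available at day 26, beside 246 cells and 1854586 UMIs at day 12. Of 4548 genes 303 (6.66%) were higher and 164 (3.61%) lower (10.3% in either direction), with a median of 0.20, but TMM factors gave 79 and 343 and a median of -0.13, so the balance of the directions was not fixed by these data. The main granule genes kept close to their day 12 level. Gzma was at 9483 and 8175 CPM (log2 ratio 0.21, and -0.18 under TMM), Gzmb at 1798 and 1566 CPM (0.20) and Prf1 at 583 and 437 CPM (0.41). Gzmc was at 942 CPM (839 to 1055) and 1739 CPM (1679 to 1800), a log2 ratio of -0.88, but 5 cells carried it at day 26, of which the top 3 held 99.3% of its UMIs, beside 91 cells at day 12. Gzmd had 0 UMIs at day 26 and 492 at day 12 (at least 28.5-fold lower) and Gzme 0 and 159 (at least 9.22-fold lower). After thinning 0 of 72 cells, which allows a share of up to 4.17%, and 11.0% of day 12 cells (27 of 246) had a UMI of Gzmd to Gzmg, and without thinning 0 and 16.3%, at median depths of 4275.5 and 6060.5 UMIs per cell. The myeloid background was 0 of 304 and 1 of 177 after thinning. By CPM, Gzmd and Gzme were thus lower past 2-fold in the NK gate as in the CD8 T gate, while Gzmc stayed within 2-fold. By share of thinned cells Gzmc was lower at day 26, with limits that did not overlap. It was found in 4.17% (3 of 72, 0.868 to 11.7%) and 26.4% (65 of 246, 21.0 to 32.4%). Gzmd alone was found in 0 of 72 and 19 of 246 thinned cells, with limits that overlapped. Gzmf and Gzmg had 0 UMIs at day 26 and 623 and 154 at day 12, but the top 3 cells held 96.0% and 98.1% of the latter. After thinning Gzmf was found in 0 of 72 and 6 of 246 cells, with limits that overlapped. The difference between the gates was not tested.

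Some receptor genes of NK cells were higher at day 26. Klrc1, the inhibitory receptor NKG2A, was at 663 CPM (578 to 759) and 192 CPM (173 to 213), a log2 ratio of 1.74 (1.36 under TMM), and was found in 51.4% (37 of 72) and 27.2% (67 of 246) of thinned cells (61.1% and 45.1% without thinning), beside 1 of 304 and 1 of 177 myeloid cells. Klrk1, encoding the activating receptor NKG2D, was at 1101 and 330 CPM (1.71), and Cd160 at 112 and 25.3 CPM (1.78). Of 28 NK receptor genes 8 were higher and none lower, with a median of 0.48, where 6.66% of all genes were higher, and under TMM 6 were higher and 1 lower, with a median of 0.12. Some of these genes define the gate, and the count was not taken without them. The gate genes Ncr1 and Klrb1c summed to 1705 and 543 CPM. Ncr1, a gate gene, was itself at 781 and 199 CPM, so the cells of the 2 days were not gated at the same level of it. The effector genes Fasl, encoding a death ligand, at 391 and 88.4 CPM (2.03, and 1.66 under TMM) and Ccl3, a chemokine, at 515 and 64.2 CPM (2.82) were higher, and Klf2 was at 422 and 50.1 CPM (2.84). For Klf2 the run pair gave 2.73 in the same direction. A Klf2 UMI was found in 31.1% of thinned NK cells at day 5, 12.6% at day 12 and 37.5% at day 26. Cd7 (874 and 177 CPM, 2.24) and the lymphotoxin gene Ltb (363 and 69.6 CPM, 2.23) were among the highest ratios as well, and so was Cd74 (270 and 10.8 CPM, 3.75), of which 3 cells held 88.5% at day 26. Ifitm2 was lower here too, at 21.7 and 306 CPM (-3.32), but its level at day 5 was 20.1 CPM and its run pair ratio 2.38. Tnfrsf9 was at 171 and 566 CPM (-1.67), Vegfa at 31.0 and 150 CPM (-1.96) and the glycolytic enzyme gene Gapdh at 105 and 315 CPM (-1.49). Of 19 glycolysis and hypoxia genes none was higher and 6 were lower (median -0.42), and of 12 cell cycle genes none was higher and 5 were lower (median -0.63), with no Mki67 UMI at day 26 beside 47 at day 12 (at least 2.72-fold lower). Over all genes of the NK gate 6.66% were higher and 3.61% lower. The share of NK cells with a UMI of the 6 cycling genes was nearly level after thinning, at 5.56% (4 of 72) and 6.10% (15 of 246), and 9.72% and 15.0% without.

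In the myeloid gate 100 of 6495 genes (1.54%) were higher and 169 (2.6%) lower (4.14% in either direction), with a median of 0.02. Several genes of alternatively activated macrophages were lower at day 26. Ccl24, an eosinophil-attracting chemokine, was at 91.0 CPM (80.5 to 102) at day 26, 1429 CPM (1360 to 1501) at day 12 and 7356 CPM at day 5, a log2 ratio of day 26 over day 12 of -3.83. Arg1, which breaks down arginine, was at 78.9, 552 and 701 CPM (-2.66), Chil3, a chitinase-like protein, at 271, 1277 and 3186 CPM (-2.20) and Mrc1, the mannose receptor, at 21.2, 137 and 211 CPM (-2.24). All 4 were lower at each later day. Retnla had 0 UMIs at day 26 and 103 in 3 cells at day 12 (at least 90.6-fold lower by UMIs). The type 2 cytokine gene Il13 had 0 and 100 UMIs, the latter from 4 cells without a C1q UMI. For both genes the shares of thinned cells had limits that overlapped. After thinning Ccl24 was found in 4.61% and 31.1% of cells, Arg1 in 9 of 304 and 39 of 177 cells, Mrc1 in 2.96% and 16.9% and Chil3 in 24.3% and 36.7%. Without thinning the shares were 7.57% and 36.7%, 3.95% and 24.3%, and 8.22% and 26.0%, and for Chil3 36.8% and 40.1% with limits that overlapped, at median depths of 9369 and 5499 UMIs per cell, and among CD8 T cells, the background, none of the 4 was above 0.463% after thinning. The matrix proteases Mmp12 (21.2 and 260 CPM) and Mmp13 (4.03 and 94.8 CPM) had log2 ratios of -3.11 and -2.90, and Mmp12 had a run pair ratio of 2.43. A few cells carried other low ratios. Gm5483 and Stfa2l1, stefin genes of neutrophils, were at 4.03 and 198 CPM (-3.89) and 3.36 and 163 CPM (-3.70), each from 9 cells at day 12, and the chemokine gene Ccl8 was at 30.6 and 294 CPM (-2.91) from 4 and 9 cells. Of 27 macrophage mediator genes 1 was higher and 10 were lower (median -0.46).

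The gate also differed in make-up. Cells with a C1qa, C1qb or C1qc UMI, which marks macrophages, were 11.2% (34 of 304) at day 26, 27.1% (48 of 177) at day 12 and 37.0% at day 5 after thinning (15.5% and 27.7% at days 26 and 12 without). The ratios were therefore also taken apart. In the C1q-positive cells Ccl24 had a log2 ratio of -5.63 and Arg1 of -2.95, and in the C1q-negative cells -2.31 and -1.40, so both genes were lower in both kinds of cell. Ace and Treml4, genes of non-classical monocytes, were higher, at 149 and 44.3 CPM (log2 ratio 1.55) and 73.9 and 20.4 CPM (1.46), and so was Cx3cr1, a receptor of the same cells, at 59.8 and 22.2 CPM (1.12). Treml4 was found in 13.8% and 1.13% of thinned cells (32.9% and 6.78% without thinning) and in none of the 2139 and 648 CD8 T cells. The share of cells with a UMI of Ly6c2 or Ccr2, genes of classical monocytes, was 59.9% and 59.3% after thinning (81.25% and 69.5% without), but CD8 T cells carry these UMIs too. By level the 2 genes were lower, at 988 and 1657 CPM together. Ly6c2 had a log2 ratio of -1.15, with -0.46 in C1q-positive and -1.29 in C1q-negative cells. Apoe, a lipid carrier of macrophages, was at 420 and 183 CPM (1.16), with 0.21 in C1q-positive and 2.14 in C1q-negative cells.

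Dendritic cell chemokine and migration genes were lower in part. Ccr7, which takes dendritic cells to lymph nodes, was at 174 and 558 CPM (log2 ratio -1.63), Ccl17 at 33.6 and 176 CPM (-2.10) and Ccl22 at 58.1 and 206 CPM (-1.66). The run pair of Ccr7 was 5.99, the other way. These ratios rested on few cells. After thinning Ccr7 was found in 17 of 304 and 16 of 177 cells, with limits that overlapped. Ccl22 came from 19 and 17 cells, of which the top 3 held 61.8% and 52.6% of its UMIs. Of 20 dendritic cell genes none was higher and 4 were lower (median -0.40), against 1.54% and 2.6% of all genes in the gate. MHC class II genes kept near level, with Cd74, the invariant chain, at 14586 and 10734 CPM (0.44), 1 of 8 past 2-fold and a median of 0.16, and the monocyte list had 3 of 15 lower with a median of -0.00. The neutrophil genes S100a8 and S100a9 were also lower, S100a8 at 613 and 1497 CPM (-1.27) and S100a9 at 728 and 1703 CPM (-1.21), but the direction was not stable: under the stricter gate both ratios turned to 0.22, and among cells with a ribosomal share of 5 to 60% S100a9 turned to 0.998. Immediate early genes went both ways. Higher were Fos at 1859 and 480 CPM (1.93), Atf3 at 1256 and 426 CPM (1.54) and Zfp36 at 3253 and 1094 CPM (1.56), and the run pair of Fos was 1.26. Lower were Fosb at 71.2 and 169 CPM (-1.14) and Nr4a3 at 57.7 and 205 CPM (-1.66). Of 20 immediate early and heat shock genes 4 were higher and 2 lower (median 0.42). Of 28 type I interferon genes 4 were higher and none lower (median 0.34), with Ifit3 at 39.3 and 2.66 CPM (117 and 3 UMIs), a ratio of CPM of 14.8 with counting limits of 4.93 to 72.7.

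Few genes were past 2-fold in the same direction in every gate. Of 3963 genes tested in all 4 gates, 2 were higher in each (Zfp36 and Tnfaip8l2) and 20 were lower in each. Zfp36 had log2 ratios of 1.39, 2.02, 1.25 and 1.56 in the CD8 T, CD4 T, NK and myeloid gates. Among the 20 were Pgk1, Tfrc, the transferrin receptor that brings iron into cells, Lmna, a protein of the nuclear lamina, Nr4a3, Fosb, and AA467197, with log2 ratios for the last of -3.36, -1.45, -2.46 and -1.68. In the CD8 T gate the run pair was below 0 for 11 of the 20, with limits below 0 for none of them, and was above 0 with its limits for Fosb (2.97) and the histone demethylase gene Kdm6b (1.36). In the NK gate the run pair also went both ways. It was -3.33 for AA467197 and -1.16 for Tfrc, in the direction of day 26, but 1.69 for Nr4a3 and 1.37 for Fosb. Day and run cannot be told apart for these genes.

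**Figure D5:**
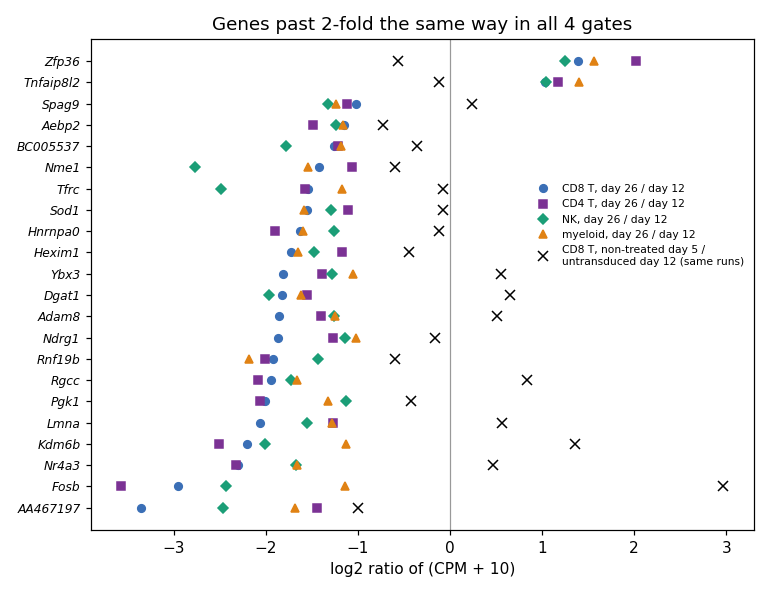
Log2 ratio of day 26 over day 12 (horizontal axis, 10 CPM added) in each of the 4 gates for the 22 genes past 2-fold in the same direction in all of them, with crosses for the run pair ratio in the CD8 T gate. Points of 2 genes lie above 1 and those of 20 genes below -1, while the crosses lie on both sides of 0.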

How the data were processed

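The deposited file is 1 matrix of UMI counts for 27998 genes and 15700 barcodes (98669511 UMIs) of 8 libraries, aggregated by the authors, and the values are counts as deposited with no normalization applied here before summing. The submitters' processing notes name Cell Ranger 2.2.0, bcl2fastq and build GRCm38, while the study's methods name another Cell Ranger version. The CD45+ sort and the enrichment for CD8+ T cells set which cells could be counted. Pooling of 5 mice is stated for days 5 and 12, and the day 26 and non-treated libraries are described only by their labels. Barcodes were tied to libraries by suffix and aggregation line. Depth was 24917112 UMIs at day 26 and 14981578 UMIs at day 12, and counting limits and floors cover counting error only.

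Cells with 500 to 6000 genes, 2000 to 40000 UMIs and under 10% mitochondrial UMIs were kept, gated on lineage UMIs, and their counts summed per gate and library with Python 3.11.15, numpy 2.4.6, pandas 2.3.3 and scipy 1.17.1. Log2 ratios of CPM used a pseudocount of 10 CPM over genes with at least 50 UMIs in both libraries together, and 2-fold served as a rule of size. For shares of cells with a UMI, each cell was thinned to 2000 UMIs (seed 1). The 10 genes with the highest and lowest ratios in each gate, members of 28 gene lists past 2-fold and fixed cell state genes could be named. The members and lists were chosen with earlier results of these data known. Doublets were not removed in the main results. Removing the 6% highest Scrublet scores (scanpy 1.11.5) per library was an alternative, as were TMM factors (edgeR 4.0.16, R 4.3.3), other filters, gates, pseudocounts and minimum counts, means of per-cell CPM, leaving out cycling cells, and the day 5 library of the same ACT as the reference. With 1 library per day no test was run. The calculation of ratios and limits was tested on simulated Poisson counts, which do not hold the spread between cells. Upstream sequences were read from RefSeq tables of GRCm38.p6, in which each gene shown matched by symbol. Near-identical genes (Gzmd and Gzme, the Ifitm genes) may share reads. Figures were drawn with matplotlib 3.10.9.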

Additional observations from a re-analysis of the deposited data

Results flagged for a closer look

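A gene past 2-fold in one gate and past 2-fold the other way in another was listed because its day 26 over day 12 ratio differed in direction between cell types. With 1 library per day these differences were not tested.

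Fos, an immediate early factor, had a log2 ratio of -1.37 in the CD4 T gate, 1.17 in the NK gate and 1.93 in the myeloid gate, and Nr4a1, an early response gene of T cell receptor signals, had -1.06 in the CD4 T gate and 1.1 in the myeloid gate. Ly6c2, a surface marker of memory CD8+ T cells and of monocytes, had -1.03 in the CD8 T gate, 1.81 in the NK gate and -1.15 in the myeloid gate. Il2, the T cell growth factor, had 1.17 in the CD8 T gate, where 175 UMIs were found at day 26 and 3 at day 12 and the top 3 cells held 44.6% of the former, and -1.21 in the CD4 T gate, where 47 of the 48 day 12 UMIs were in 1 cell. Fgl2, a secreted fibrinogen-like protein, had -1.01 in the CD8 T gate and 1.05 in the NK gate. Hspa1b, a heat shock protein, had 1.09 in the CD4 T gate and -1.45 in the NK gate, and Matk, a kinase that acts on Src family kinases, had 1.2 in the CD4 T gate and -1 in the myeloid gate.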

How the results depend on the processing

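No paired analysis was possible because each day is 1 library, and for the same reason no replicate could be left out. Composition differences, in percentage points of day 26 minus day 12, were 19.4 for CD8 T, 3.84 for CD4 T, -12.8 for NK and -2.35 for myeloid cells. They were 26.7 (CD8 T) and -5.59 (myeloid) with the filter of the later experiment (400 to 3000 genes, 500 to 12000 UMIs, under 5% mitochondrial UMIs), 22.5 (CD8 T), 1.74 (CD4 T) and -6.23 (NK) with the strict gate, and 40.0 (CD8 T), -33.2 (NK) and -8.44 (myeloid) against day 5, and no direction turned. With a pseudocount of 1 CPM, the counts of genes past 2-fold were 706 higher and 505 lower in CD8 T cells, 448 higher in CD4 T cells, 482 higher and 259 lower in NK cells, and 273 higher and 302 lower in myeloid cells. A minimum of 10 UMIs gave 231 lower (CD4 T) and 569 higher and 269 lower (NK), and no minimum 231, 612 and 269. TMM factors gave 104 higher (CD8 T), 79 higher and 343 lower (NK), thinning 89 lower (CD4 T), 104 higher and 75 lower (NK), the strict gate 108 lower (NK), and the later filter 162 higher (NK). Against day 5, 258 (CD8 T), 255 (CD4 T) and 337 (NK) were lower. NK list members past 2-fold numbered 63, and 41 under the later filter and 35 after thinning. Without thinning, 4 NK states were lower and 5 myeloid states higher with limits that did not overlap, beside 2 and 3. The ribosomal limit, removal of doublets, removal of cycling cells and means of per-cell CPM kept every such count within 1.5 times its value, and the first 2 kept each composition difference within its counting limits (CD8 T 19.1 and 18.7, myeloid -2.15 and -1.77). Ratios turned against day 5 for Slamf6 (-0.0074), Ly6c2 (0.18) and S100a8 (0.13) in CD8 T cells, Il2 (1.72) in CD4 T cells, Ifitm2 (0.077) in NK cells, and Gm5483 (0.45), Stfa2l1 (0.11), Tnfrsf9 (0.10), Gpnmb (0.20), Cd63 (0.35) and S100a9 (0.094) in myeloid cells. They also turned for Gpnmb under the later filter (1.06), S100a8 (0.22) and S100a9 (0.22) under the strict gate, S100a9 under the ribosomal limit (0.998) and Birc5 in CD4 T cells without cycling cells (0.064). The causes were not tested, other than that Birc5 itself marks cycling cells. Depth limited the NK gate most, with 72 cells at day 26.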

Other observations

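A few other regulators of CD8+ T cells were past 2-fold in the CD8 T gate. Satb1, a chromatin organizer of T cells, was at 58.0 CPM at day 26 against 213 CPM at day 12 (log2 ratio -1.71), beside 230 CPM at day 5. Myc, a driver of T cell growth, was at 58.4 and 13.7 CPM (1.53) and at 43.9 CPM at day 5, with a run pair ratio of -1.31. Il10ra, the IL-10 receptor chain, was at 109 and 41.0 CPM (1.22), and Cd7 at 186 and 60.7 CPM (1.47). Eomes, a factor of memory and dysfunctional cells, was at 119 and 54.5 CPM, just within 2-fold, with a run pair ratio of 2.34. Lymphocyte cytokines and chemokines had no shared direction, with 3 of 16 tested higher and 3 lower (median -0.11), against 1.67% and 1.77% of all genes.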
